A study of Mus musculus with 6 samples.

Results

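The Eph receptors and ephrins were examined in intestinal organoids of Apc Min mice, as 10 genes picked by symbol (Ephb2, Ephb3, Ephb4, Ephb6, Epha1, Epha2, Efnb1, Efnb2, Efna1 and Efna4) out of 24956 in the deposited table. RNA was sequenced from 3 organoid cultures that received DM-aKG, a dimethyl ester through which α-ketoglutarate, an intermediate of the TCA cycle, can enter cells, and from 3 control cultures. All 6 cultures were intestinal organoids of the Apc Min genotype grown in organoid medium; Apc Min is a nonsense allele of Apc, whose protein restrains Wnt signalling by marking β-catenin for destruction. The design text calls the replicates biological; the treatment of the controls, the dose, the time, the age of the mice and whether a group came from 1 mouse or line were not given in the sources used here, so p-values measure the spread between these cultures. Levels are given as RPKM, reads scaled to transcript length and library size. The lengths used were not given in the sources used here. Which of a pair of genes is the more abundant therefore holds only for the authors' lengths. A change of a ratio between groups does not depend on them if the same lengths served all libraries.

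Eph receptors are receptor tyrosine kinases whose ligands, the ephrins, sit on the membrane of the neighbouring cell, so that signalling needs cell contact and runs into both cells. A-type ephrins are held by a lipid anchor and bind mainly EphA receptors, and B-type ephrins cross the membrane and bind mainly EphB receptors. In the mouse intestine, Ephb2 and Ephb3 are targets of β-catenin and TCF in crypt cells, ephrin-B1 and ephrin-B2 are more abundant in differentiated cells above them, and the repulsion between the cell layers keeps cells in place; Ephb3 is also made by Paneth cells, which are misplaced when it is lost.

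The promoters of a choice of members are shown first. They are of a pair of receptors that differed in response, and of a receptor and the ephrin-B gene that rose. Each runs 5′ to 3′ from 250 bases before to 50 bases after the start site on the gene's strand, in lower case, with capitals where a searched motif was found (RefSeq, GRCm38.p6). Ephb3 (chr16:21204545-21204844, plus strand) and Ephb2 (chr4:136835963-136836262, minus strand) are both crypt receptors, of which Ephb3 fell and Ephb2 did not pass the test. Epha2 (chr4:141300971-141301270, plus strand) had the largest rise of the tested family genes and Efnb2 (chr8:8661193-8661492, minus strand) was the ephrin-B gene that rose.
Ephb3: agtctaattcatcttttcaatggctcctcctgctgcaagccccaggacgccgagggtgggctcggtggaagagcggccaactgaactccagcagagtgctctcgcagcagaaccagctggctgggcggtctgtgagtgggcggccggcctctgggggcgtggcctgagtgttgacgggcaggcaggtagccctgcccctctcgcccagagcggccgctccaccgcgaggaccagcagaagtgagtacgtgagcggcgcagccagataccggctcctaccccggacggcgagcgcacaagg
Ephb2: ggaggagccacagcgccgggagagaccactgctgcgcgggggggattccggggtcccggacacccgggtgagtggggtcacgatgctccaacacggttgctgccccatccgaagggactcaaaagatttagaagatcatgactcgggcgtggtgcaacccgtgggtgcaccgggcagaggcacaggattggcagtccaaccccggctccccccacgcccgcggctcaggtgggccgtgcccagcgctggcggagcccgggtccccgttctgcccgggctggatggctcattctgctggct
Epha2: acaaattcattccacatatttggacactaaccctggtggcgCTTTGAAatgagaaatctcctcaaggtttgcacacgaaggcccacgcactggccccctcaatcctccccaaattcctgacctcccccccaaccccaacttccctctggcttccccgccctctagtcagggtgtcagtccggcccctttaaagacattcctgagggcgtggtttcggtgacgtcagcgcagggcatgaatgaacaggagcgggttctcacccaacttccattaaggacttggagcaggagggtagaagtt
Efnb2: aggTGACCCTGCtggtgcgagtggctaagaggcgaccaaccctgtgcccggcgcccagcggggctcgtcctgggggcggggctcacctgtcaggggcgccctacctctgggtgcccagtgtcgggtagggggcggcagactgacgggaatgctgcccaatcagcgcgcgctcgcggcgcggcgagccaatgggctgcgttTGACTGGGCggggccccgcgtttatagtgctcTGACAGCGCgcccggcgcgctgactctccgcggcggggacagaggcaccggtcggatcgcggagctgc
The searched motifs, chosen with the values known, were those of TCF (CTTTGAT and CTTTGAA), AP-1 (TGACTCA) and the antioxidant response element (TGACNNNGC), on both strands. The AP-1 and antioxidant motifs share their first 4 letters and can overlap. In all 32851 promoter windows of this length, 8.65% held the TCF motif, 5.2% the AP-1 motif and 12.4% the antioxidant motif. Among 24 windows of 21 genes of the family (Efnb3 was without an entry), the TCF motif occurred in 1 window, that of Epha2, as CTTTGAA at -209 to -203 from the start site. The antioxidant motif occurred in 2 windows, those of Efnb2 and Efna5, with 3 matches in Efnb2 at -247 to -239, -50 to -42 and -18 to -10. No window of the family held the AP-1 motif. The Ephb3 and Ephb2 windows held none of the searched letters, which describes these 300 bases and nothing beyond them. The same held for the windows of Efna1, Ephb4 and Efna4, members that fell and whose windows are not printed. Of the members without a printed window or a position below, Ephb4 spans 137350109 to 137378669 on chromosome 5 (plus strand), Ephb6 41605482 to 41620509 on chromosome 6 (plus strand), Epha1 42358487 to 42373268 on chromosome 6 (minus strand) and Efnb1 99136130 to 99148991 on chromosome X (plus strand) of GRCm38 (GENCODE); all are annotated as protein-coding.

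The organoids carried the epithelial markers Epcam, Cdh1, Vil1, Krt8, Krt18 and Cdx2, with a summed level of 2597 to 3353 RPKM in DM-aKG and 2078 to 2136 RPKM in control libraries. Of these 6 markers, 4 were called higher and 2 lower in DM-aKG, and the largest value of a single marker in a library was 1695.89 RPKM. Markers of endothelium summed to 0.31 to 0.4 RPKM in DM-aKG and 0.13 to 0.17 RPKM in control (0 of 5 reached a mean of 1 RPKM; Cdh5, Kdr and Cldn5 were at 0), and 0 of 14 markers of fibroblasts and muscle, immune cells and glia reached that mean. A library in each group stood apart. DM-aKG replicate 1 had 329.55 RPKM of the Paneth cell gene Defa17, against 68.54 and 60.21 in DM-aKG replicates 2 and 3. Control replicate 2 had 49.54 RPKM of the hypoxia-inducible gene Ankrd37, against 27.03 and 28.72 in control replicates 1 and 3, and all controls were above the DM-aKG libraries. The estimated depth was 32.7 to 34.3 × 10⁶ reads per library, at which the 9 members above 1 RPKM had about 342 to 5515 reads each and a counting error of at most 5.41%.

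Genes of the family differed in both directions between DM-aKG and control organoids. Epha2 rose to 2.97 times its mean control level, Efna1 fell to 0.284 times, and Ephb3 and Ephb4 fell while Ephb2 did not pass the test. Of 10 members, 9 had a mean of at least 1 RPKM and were tested, and these comprised 3 higher (Epha2, Efnb2 and Epha1), 4 lower (Efna1, Ephb3, Ephb4 and Efna4) and 2 not past the threshold (Ephb2 and Efnb1), by limma on log2(RPKM + 0.5) with Benjamini-Hochberg adjustment over all 10852 tested genes. The background was high, with 55.6% of tested genes called in either direction, 30.9% higher and 24.7% lower, so the 7 of 9 members called are to be read against that share. The split of all calls was 3354 higher and 2679 lower, and centring libraries on their median turned it to 2790 higher and 3340 lower, while the 9 members stayed at 3 higher and 4 lower. The groups did not overlap in the same number of members, 7 of 9, against 64.2% of all tested genes. A called difference of at least 1.5-fold on this scale was reached by 2 higher members (7.04% of tested genes) and 4 lower members (4.91% of tested genes). The median log2 difference was -0.04 over the 9 members and 0.02 over all tested genes. In bulk RNA, fewer cells of a type and less RNA per cell cannot be told apart.

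**Figure D1:**
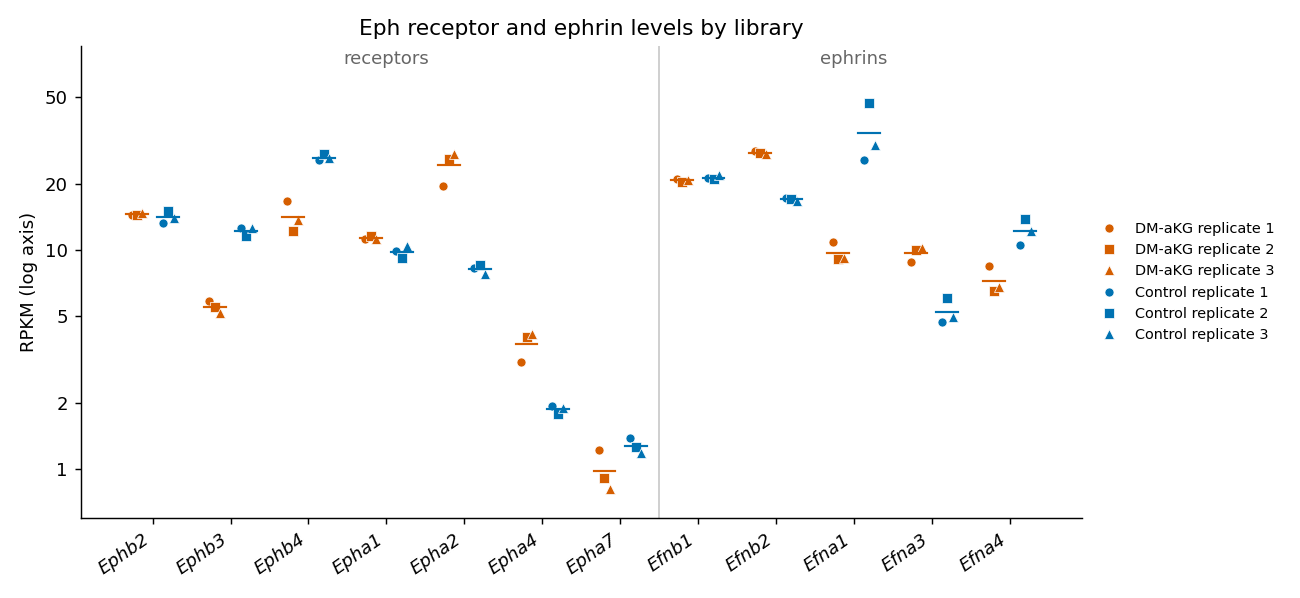
RPKM (log axis) of the 12 tested Eph receptor and ephrin genes in each of 3 DM-aKG libraries (orange, left of each pair) and 3 control libraries (blue, right), with symbols for replicate numbers and lines for group means. The groups separate in 9 of the 12 genes, against 64.2% of all tested genes, and overlap in Ephb2, Efnb1 and Epha7.

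Among the B-type receptors, the crypt genes Ephb2 and Ephb3 parted. Ephb3 had 5.85, 5.47 and 5.17 RPKM in the DM-aKG libraries, against 12.58, 11.57 and 12.62 RPKM in the controls. Every DM-aKG library lay below every control, and Ephb3 fell by 1.09 ± 0.06 log2 units (SE; limma, adjusted p = 1.30e-05). Ephb2 had 14.48, 14.47 and 14.76 RPKM in the DM-aKG libraries, against 13.25, 15.11 and 14.03 RPKM in the controls. The Ephb2 groups overlapped, with the DM-aKG libraries inside the range of the controls, and the log2 difference was 0.04 (95% interval -0.08 to 0.17; limma, adjusted p = 0.506), which bounds it to between 0.946 and 1.13 times the control on this scale. The ratio of Ephb3 to Ephb2 RPKM was 0.404, 0.378 and 0.35 in DM-aKG, against 0.949, 0.766 and 0.899 in control. These ratios did not overlap between the groups, and the log2 ratio differed by -1.20 (exact two-sided permutation test, p = 0.1, the smallest that 3 against 3 libraries allow; 0.114 adjusted over 8 pairs).

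Axin2, a feedback target of Wnt signalling, was at 35.54, 32.53 and 34.85 RPKM in DM-aKG, against 56.45, 54.86 and 55.32 RPKM in control, a log2 difference of -0.69 that lies between those of Ephb2 and Ephb3. Summed markers of Paneth, stem and goblet cells and enterocytes were lower in DM-aKG without overlap, as Ephb3 was. The sum of 4 tuft cell markers was higher without overlap, at 2.72 to 8.82 RPKM in DM-aKG and 2.12 to 2.58 RPKM in control. Of these 4, 1 reached a mean of 1 RPKM and 0 were called. The 6 Paneth markers, Defa17 among them, summed to 704 to 1642 RPKM in DM-aKG, against 2195 to 2861 RPKM in control, and 6 of 6 were called lower. The 5 stem cell markers summed to 135 to 180.2 RPKM in DM-aKG, against 317 to 378.5 RPKM in control, and 5 of 5 were lower. Axin2 is among these 5, so its fall and theirs are not separate observations. The 5 goblet markers summed to 465.8 to 598.2 RPKM in DM-aKG, against 1259 to 1371 RPKM in control, and 4 of 5 were lower. The largest value of a single goblet marker in a library was 1033.51 RPKM. The 5 enterocyte markers summed to 861 to 926 RPKM in DM-aKG, against 1012 to 1153 RPKM in control, with 2 higher and 2 lower. No marker of these lists was at 0 in all libraries, and their part in the falls of Ephb3, Ephb4, Efna1 and Efna4 was not tested. Within DM-aKG, replicate 1 had 1642 RPKM of Paneth markers against 731 and 704 in replicates 2 and 3, and 5.85 RPKM of Ephb3 against 5.47 and 5.17. DM-aKG replicate 1 was also highest in stem cell (180.2 RPKM against 134.8 and 136.5), goblet (598.2 against 465.8 and 474.2) and tuft markers (8.82 against 3.22 and 2.72). It was lowest in enterocyte markers (861.1 RPKM against 926.2 and 918.5). Among the controls, replicate 2 had the highest sum of Paneth markers, 2861 RPKM against 2195 and 2276 in replicates 1 and 3. It also had the highest sum of stem cell markers (378.5 RPKM) and the lowest Ephb3 (11.57 RPKM against 12.58 and 12.62). Each of these orders rests on 1 library, and no relation of the sums to Ephb3 was tested.

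Ephb4, a receptor best known from the pairing of veins with arteries that express ephrin-B2, was the most abundant receptor of the family in control organoids. It had 16.67, 12.22 and 13.63 RPKM in DM-aKG, against 25.56, 27.38 and 26.10 RPKM in control. The groups did not overlap, DM-aKG replicate 1 was the library nearest the controls, and Ephb4 fell by 0.88 ± 0.10 log2 units (limma, adjusted p = 2.97e-04). The 5 endothelial markers summed to 0.31 to 0.4 RPKM in DM-aKG, against 0.13 to 0.17 RPKM in control. Of them, Cdh5, Kdr and Cldn5 were at 0 in all 6 libraries, and the part of endothelium in the Ephb4 values was not tested. The ratio of Ephb4 to Ephb2 RPKM was 0.845 to 1.15 in DM-aKG, against 1.81 to 1.93 in control, so the pair lay near each other in DM-aKG, whereas Ephb4 was well above Ephb2 in control. Ephb6, a receptor with an inactive kinase domain, was listed at 0.00, 0.01 and 0.01 RPKM in DM-aKG, against 0.02, 0.03 and 0.02 RPKM in control. That is at most about 4 reads in a library, so Ephb6 was not tested, and although the listed values do not overlap, no difference was detectable at this depth.

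Among the A-type receptors, Epha2, which binds ephrin-A1 with high affinity and is abundant in many carcinomas, had 19.57, 25.90 and 27.35 RPKM in DM-aKG, against 8.24, 8.50 and 7.78 RPKM in control. All DM-aKG libraries were above all controls, with replicate 1 the lowest of them. The mean was 24.3 ± 4.14 RPKM in DM-aKG and 8.17 ± 0.365 RPKM in control (SD, n = 3 each), a log2 difference of 1.5 ± 0.11 (SE; limma, adjusted p = 5.31e-05), which was the 115th largest rise among all tested genes. Epha1, the first Eph receptor to be described, had 11.25, 11.62 and 11.25 RPKM in DM-aKG, against 9.88, 9.23 and 10.37 RPKM in control. This was a small rise without overlap, of 0.20 ± 0.05 on the log2 scale (limma, adjusted p = 0.0129). Epha1 shares 236 exonic bases with Zyx on the other strand, and Zyx averaged 26.4 RPKM in DM-aKG and 14.4 RPKM in control (log2 difference 0.85); whether the authors' counting used the strand was not given in the sources used here, and its part in the rise of Epha1 was not tested. The ratio of Epha2 to Epha1 RPKM was 1.74, 2.23 and 2.43 in DM-aKG, against 0.834, 0.921 and 0.75 in control, so the more abundant of the pair was Epha2 in DM-aKG and Epha1 in control.

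**Figure D2:**
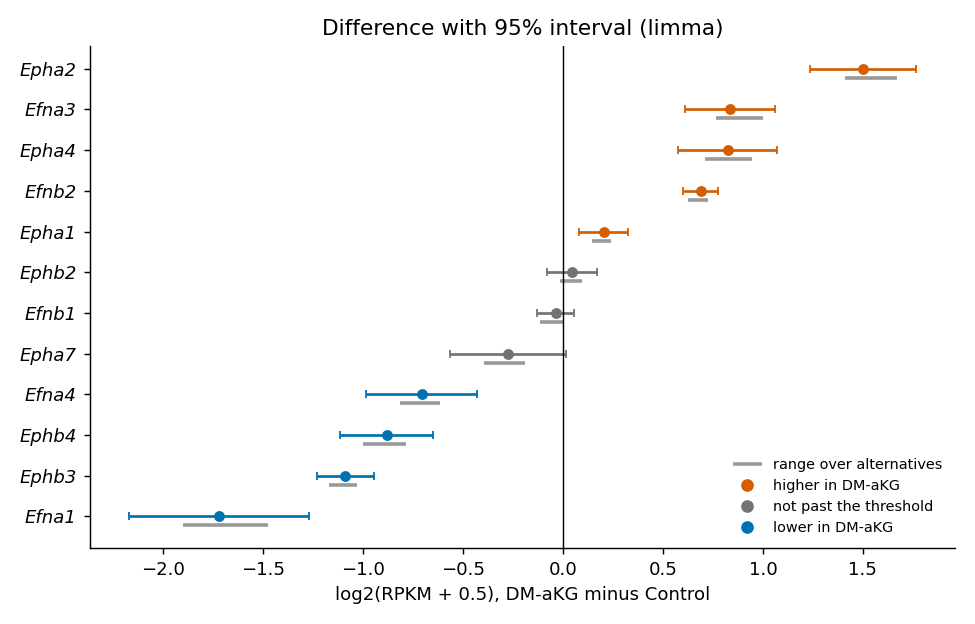
Log2(RPKM + 0.5) difference of DM-aKG minus control for the 12 tested genes of the family, with 95% intervals from limma (coloured bars) and the range over the alternative settings (grey bars). Epha2 lies at 1.5 and Efna1 at -1.72, and the intervals of Ephb2, Efnb1 and Epha7 include 0.

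Of the B-type ligands, Efnb2 rose and Efnb1 did not pass the test. Efnb2 had 28.08, 27.74 and 27.37 RPKM in DM-aKG, against 17.20, 17.09 and 16.77 RPKM in control. The spread within each group was small beside the gap, and Efnb2 rose by 0.69 ± 0.04 on the log2 scale (SE; limma, adjusted p = 1.16e-05). Efnb1 had 21.02, 20.40 and 20.92 RPKM in DM-aKG, against 21.24, 20.94 and 21.85 RPKM in control. The Efnb1 groups overlapped, and the log2 difference was -0.04 (95% interval -0.13 to 0.05; limma, adjusted p = 0.443), between 0.915 and 1.04 times the control; under quantile normalization it was -0.11 and passed (limma, adjusted p = 0.0393), and with libraries scaled to an equal RPKM sum it was 0.0014. The Efnb2 to Efnb1 ratio was 1.34, 1.36 and 1.31 in DM-aKG, against 0.81, 0.816 and 0.768 in control, so Efnb2 was the more abundant ephrin-B gene in every DM-aKG library and Efnb1 in every control.

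Both A-type ligands among the members fell. Efna1, which encodes the ligand ephrin-A1, had 10.81, 9.13 and 9.16 RPKM in DM-aKG, against 25.67, 46.70 and 30.02 RPKM in control. The groups did not overlap, and control replicate 2 was far above the other controls. The mean was 9.7 ± 0.961 RPKM in DM-aKG and 34.1 ± 11.1 RPKM in control (SD, n = 3 each), and Efna1 fell by 1.72 ± 0.19 log2 units (SE; limma, adjusted p = 2.91e-04), the 36th largest fall among tested genes. Without control replicate 2, the library with the highest Ankrd37, Efna1 fell by 1.47 (limma, adjusted p = 1.57e-04). Ankrd37 itself had 6.11, 4.11 and 4.0 RPKM in DM-aKG, so it was lower there as Efna1 was, by a log2 difference of -2.73 (limma, adjusted p = 9.15e-05), and its part in the fall of Efna1 was not tested. Efna4, the ligand ephrin-A4, had 8.46, 6.49 and 6.81 RPKM in DM-aKG, against 10.48, 13.84 and 12.17 RPKM in control. Its groups did not overlap either, with DM-aKG replicate 1 nearest the controls and control replicate 2 highest, and Efna4 fell by 0.71 ± 0.12 (limma, adjusted p = 0.00185). The ratio of Efna1 to its receptor Epha2 was 0.552, 0.353 and 0.335 in DM-aKG, against 3.12, 5.49 and 3.86 in control. Ligand RNA was below receptor RNA in every DM-aKG library and above it in every control, and the log2 ratio differed by -3.33 (exact two-sided permutation test, p = 0.1; 0.114 adjusted over 8 pairs).

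**Figure D3:**
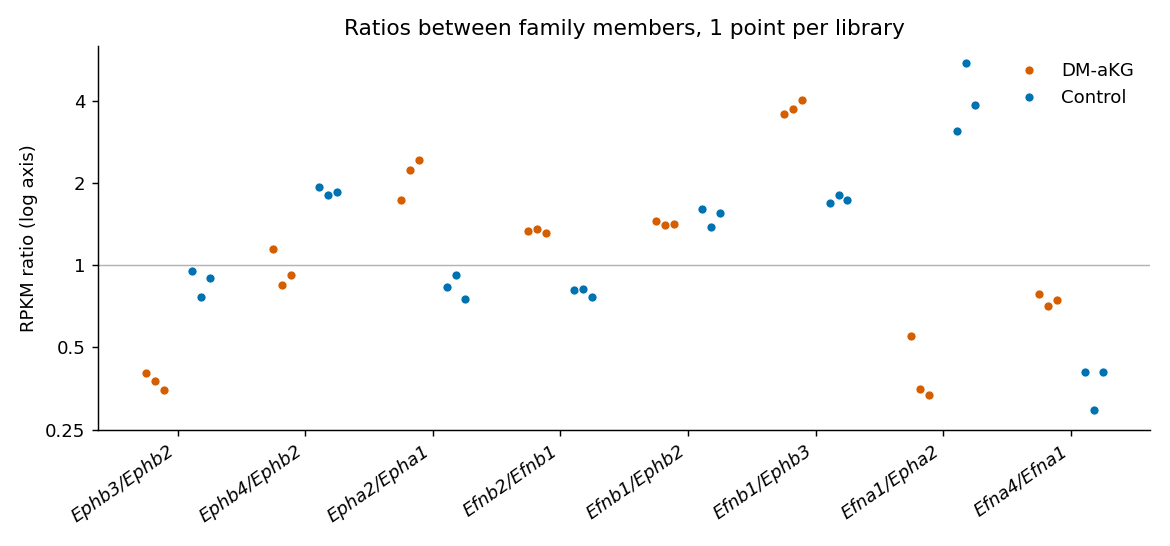
RPKM ratios between pairs of members (log axis), 1 point per library, for DM-aKG (orange, left) and control (blue, right). The Efna1 to Epha2 ratio lies at 0.335 to 0.552 in DM-aKG and 3.12 to 5.49 in control, and Efnb1 to Ephb2 is the pair whose groups overlap.

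Over the 8 pairs, 7 had ratios that did not overlap between the groups, each with an exact two-sided permutation p of 0.1. These ratios rest on the member values given above, so the count adds no support beyond those values. The share for other gene pairs was not computed, and 64.2% of single tested genes did not overlap. The exception was Efnb1 to Ephb2, at 1.41 to 1.45 in DM-aKG and 1.39 to 1.6 in control (exact p = 0.4). Efnb1 to Ephb3 was at 3.59 to 4.05 in DM-aKG, against 1.69 to 1.81 in control. Efna4 to Efna1 was at 0.711 to 0.783 in DM-aKG, against 0.296 to 0.408 in control.

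The other 12 genes of the family filled in the picture of each class, and 3 of them were tested. Epha4, a receptor that binds A-type and several B-type ephrins, had 3.07, 4.0 and 4.12 RPKM in DM-aKG, against 1.94, 1.78 and 1.91 RPKM in control, and rose by 0.82 ± 0.11 log2 units (limma, adjusted p = 5.30e-04). Efna3, which encodes the ligand ephrin-A3, had 8.78, 10.02 and 10.25 RPKM in DM-aKG, against 4.67, 6.04 and 4.96 RPKM in control, and rose by 0.84 ± 0.10 (limma, adjusted p = 3.33e-04). Neither gene's groups overlapped. Epha7 was at 1.23, 0.91 and 0.81 RPKM in DM-aKG, against 1.39, 1.27 and 1.19 RPKM in control (log2 difference -0.27; limma, adjusted p = 0.0955), and passed the test without DM-aKG replicate 1 (log2 difference -0.39; limma, adjusted p = 0.00932). A pair of genes below the filter had measurable RNA. Efna2 was at 0.63 to 0.81 RPKM in DM-aKG and 0.45 to 0.86 RPKM in control, and Efnb3 at 0.19 to 0.40 RPKM in DM-aKG and 0.10 to 0.25 RPKM in control. Epha3, Epha5, Epha6, Epha8, Epha10, Ephb1 and Efna5 did not exceed 0.03 RPKM in any library.

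**Figure D4:**
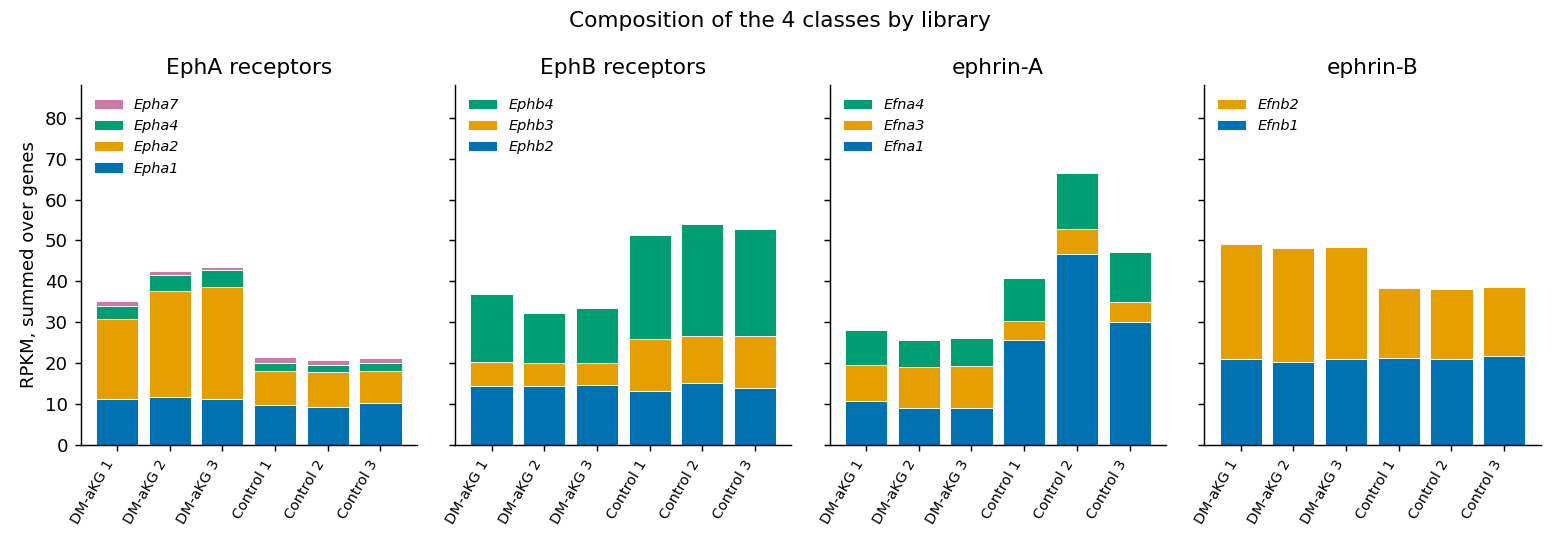
RPKM of the tested genes of each class, stacked by gene, in the 3 DM-aKG libraries (left) and the 3 control libraries (right). The EphA stack is taller in DM-aKG through Epha2, the EphB stack is shorter with Ephb2 level, the ephrin-A stack is shorter through Efna1, and the ephrin-B stack is taller through Efnb2.

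Summed by class over all 22 genes, EphA receptors and ephrin-B genes were higher and EphB receptors and ephrin-A genes lower in DM-aKG, without overlap between the groups. EphA receptors summed to 35.1, 42.5 and 43.6 RPKM in DM-aKG, against 21.5, 20.8 and 21.3 RPKM in control, and EphB receptors to 37.0, 32.2 and 33.6 RPKM in DM-aKG, against 51.4, 54.1 and 52.8 RPKM in control. The sum of all 14 receptors was 74.6 ± 2.49 RPKM in DM-aKG and 73.9 ± 0.993 RPKM in control (SD, n = 3 each), a gap smaller than the spread between the DM-aKG libraries. Ephrin-A genes summed to 28.7, 26.5 and 26.9 RPKM in DM-aKG, against 41.5, 67.0 and 48.0 RPKM in control. Efna1 made up 35.4% ± 1.97 of the ephrin-A RPKM in DM-aKG and 64.7% ± 4.3 in control, and Efna3 made up 35.5% ± 4.27 in DM-aKG and 10.2% ± 1.13 in control (SD, n = 3 each). Ephrin-B genes summed to 49.3, 48.5 and 48.6 RPKM in DM-aKG, against 38.5, 38.3 and 38.9 RPKM in control. In order of mean level, the receptors ran Epha2, Ephb2, Ephb4, Epha1, Ephb3, Epha4 and Epha7 in DM-aKG, where Ephb2 lay within the range of Ephb4 and no other neighbours overlapped. The order in control was Ephb4, Ephb2, Ephb3, Epha1, Epha2, Epha4 and Epha7, without overlap between neighbours. The tested ephrins ran Efnb2, Efnb1, Efna1, Efna3 and Efna4 in DM-aKG, where Efna1 and Efna3 overlapped, and Efna1, Efnb1, Efnb2, Efna4 and Efna3 in control, without overlap. These sums, shares and orders are descriptions that rest on the authors' transcript lengths, and they were not tested.

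Efna1, Efna3 and Efna4 lie next to each other on chromosome 3 of GRCm38 (GENCODE), all on the minus strand and annotated as protein-coding. Efna1 spans 89271733 to 89281142, Efna3 89313899 to 89322965 and Efna4 89333390 to 89338028, so the start sites of Efna1 and Efna4 are 56.9 kb apart. The middle gene rose while both outer genes fell. Of the 4 nearest tested genes on each side, 5 of 8 were higher (Trim46, Dpm3, Slc50a1, Adam15 and Zbtb7b), 0 lower and 3 not past the threshold, against 30.9% higher and 24.7% lower among all tested genes, with log2 differences of -0.13 to 0.75. Slc50a1, a sugar transporter gene just downstream of Efna1, averaged 28.6 RPKM in DM-aKG and 16.8 RPKM in control. Adam15, a metalloprotease gene just upstream of Efna4, averaged 13.6 RPKM in DM-aKG and 8.88 RPKM in control. Efna3 and Efna4 each share exonic bases with an antisense gene model (344 and 168 bases) whose reads cannot be told apart without strand.

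**Figure D5:**
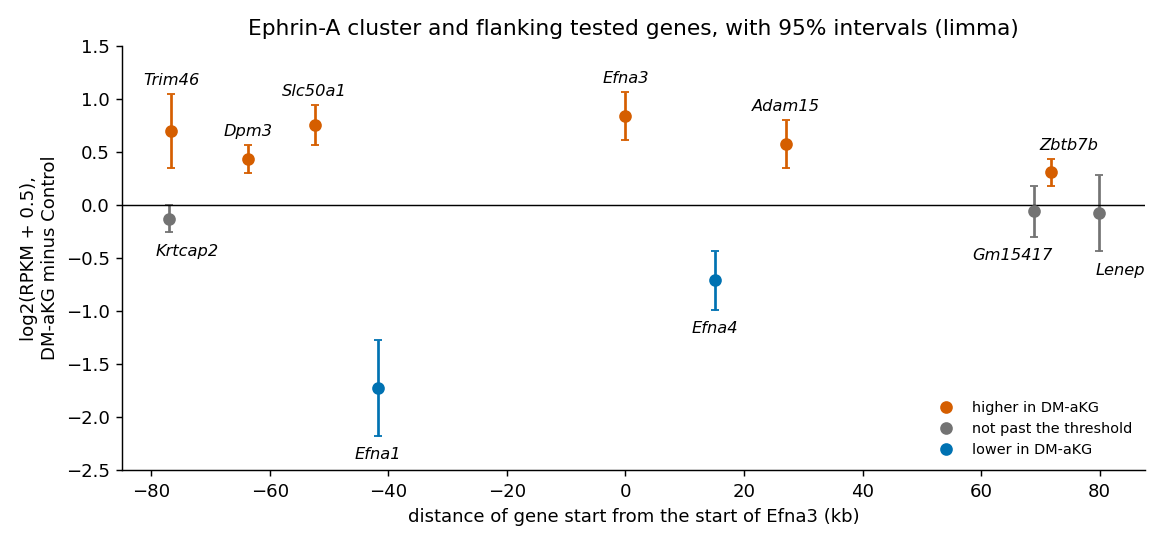
Log2(RPKM + 0.5) difference of DM-aKG minus control (limma, 95% intervals) for the ephrin-A cluster and the 4 nearest tested genes on each side, by distance of the gene start from that of Efna3 in kb. Efna1 and Efna4 were called lower, and Efna3 and 5 of the 8 flanking genes were called higher (24.7% of all tested genes were called lower and 30.9% higher). The interval of Krtcap2 (-0.257 to -0.00357) also excludes 0, but Krtcap2 did not pass the threshold (limma, adjusted p = 0.0748).

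Genes known to carry or end Eph signalling inside the cell formed a list of their own. Of 41 listed, 37 were tested, with 15 called higher, 3 called lower and 19 that did not pass, a share of 48.6% called against 55.6% of all tested genes, with a median log2 difference of 0.09. Leaving out DM-aKG replicate 1 brought the number lower to 7, and centring libraries on their median brought it to 8 with 14 higher, so the number lower depends on the scaling and on that library. By role, 4 of 17 adaptors and exchange factors, 5 of 10 kinases and phosphatases, 3 of 5 GTPases and effectors and 3 of 5 turnover genes were higher, against 30.9% of all tested genes. The 3 called lower were 2 of 10 kinases and phosphatases and 1 of 5 turnover genes, against 24.7% of all tested genes called lower. Rin1, an effector of Ras and an exchange factor for Rab5, acts in the endocytosis of EphA receptors. It had 15.05, 16.72 and 17.43 RPKM in DM-aKG, against 8.08, 8.92 and 7.94 RPKM in control. Rin1 rose by 0.94 ± 0.07 log2 units (limma, adjusted p = 4.42e-05). Afdn, the junction protein afadin that binds the tails of Eph receptors, averaged 28.2 ± 1.1 RPKM in DM-aKG and 19.5 ± 0.676 RPKM in control (SD, n = 3 each). Rock1, a kinase that drives actomyosin contraction, averaged 20.8 ± 0.175 RPKM in DM-aKG and 17.0 ± 0.482 RPKM in control, and Acp1, a phosphatase that acts on EphA2, averaged 35.2 ± 2.2 RPKM in DM-aKG and 27.7 ± 0.165 RPKM in control. The largest fall of the list was that of Pik3r1, the regulatory subunit of PI3 kinase, with 14.50, 11.46 and 10.90 RPKM in DM-aKG, against 24.13, 23.84 and 23.93 RPKM in control; it fell by 0.95 ± 0.10 (limma, adjusted p = 1.75e-04). The other genes called lower were the ubiquitin ligase gene Cblb (2.67 RPKM in DM-aKG and 3.64 RPKM in control) and the kinase gene Abl1 (13.7 RPKM in DM-aKG and 16.9 RPKM in control).

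The position of the libraries was shared by most members. DM-aKG replicate 1 was the DM-aKG library nearest the control mean in 6 of the 7 called members (Efnb2 was the exception, and in Epha1 it was level with replicate 3), and in 65.5% of all called genes. Without control replicate 2 and DM-aKG replicate 1 together, the log2 difference was 1.67 for Epha2, -1.55 for Efna1 and -0.72 for Efna4, and 3 members were higher and 4 lower. By the smallest Euclidean distance between log2 values centred on the control mean over 6 libraries, the genes most like Ephb3 were Smpdl3a (distance 0.169), Naip6 and Maged1, and those like Epha2 included Acot11 (0.145) and Stom. Those most like Efnb2 were Tor3a (0.057), Ralgapb and Mdm4, and those most like Ephb2, which did not pass the test, were Plscr3 (0.0427), Sorbs2 and Mfap1b. Naip6 belongs to a family with close copies and its level is uncertain.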

How the data were processed

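The authors deposited RPKM values with 2 decimals for 24956 genes and 6 libraries (3 DM-aKG, 3 control); columns were matched to samples by title. CASAVA 1.8, HISAT2 2.0.4, Partek and build mm10 are named, with no roles, per the submitters' processing notes; annotation, strand and the handling of multiply mapping reads were not given in the sources used here. RPKM is relative, so a change in abundant genes shifts others slightly. Depth was estimated from the RPKM step of 1 read in genes for miRNAs and snoRNAs no longer than 150 bases. Of other values up to 5 reads, 73.3% to 87.2% came out whole within 0.05 reads. The counting errors derived from this depth leave out the spread between libraries, on which the limma intervals rest. Reads per gene are approximate and use the longest GENCODE transcript.

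Genes with a mean of at least 1 RPKM over all libraries (10852) were compared as log2(RPKM + 0.5), a scale that understates changes of low genes, by limma 3.58.1 in R 4.3.3 (mean-variance trend, two-sided, Benjamini-Hochberg over all tested genes, threshold 0.05), tested on simulated data first. Ratios used exact permutation over libraries. The members and lists were chosen with earlier results of these data known. Named were all members, the other family genes above 0.1 RPKM, up to 4 called signalling genes per direction with the smallest p and the 3 genes most like each of 4 members (for Epha2, one of them is not reported here); cluster neighbours, Zyx, Axin2, Ankrd37 and Defa17 were chosen after their values were seen. Alternatives covered the pseudocount, filter, scaling, variance model, library weights, replicate block and omitted libraries. Tables and figures were made with pandas 2.3.3, numpy 2.4.6 and matplotlib 3.10.9 in Python 3.11.15.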

Additional observations from a re-analysis of the deposited data

How the results depend on the processing

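Over 17 alternatives, the 7 called members kept their direction and their side of the threshold, and 149 of 153 recomputed member values did so. The exceptions were values near 0. Ephb2 was at -0.0034 with median centring and -0.0164 with quantile normalization, and Efnb1 was at 0.0014 with libraries scaled to an equal RPKM sum and at -0.1131 with quantile normalization, where it passed (limma, adjusted p = 0.0393); the scaling moved the median of all tested genes to between -0.03 and 0.06. Leaving out single libraries gave -1.90 to -1.47 for Efna1, 1.41 to 1.65 for Epha2 and 0.16 to 0.24 for Epha1. The adjusted p of Epha1 (limma) came closest to the threshold, at 0.0498 without DM-aKG replicate 2. Of the other family genes, 1 was called lower (Epha7) with array weights and without DM-aKG replicate 1, alone or with control replicate 2, and 0 to 1 over all single omissions; 1 was called higher with a minimum mean of 3 RPKM, since Epha4 was then not tested. Signalling genes called lower numbered 8 with median centring, 7 with quantile normalization, 9 with array weights, 7 without DM-aKG replicate 1 and control replicate 2 together, and 3 to 7 over single omissions; the cause was not tested. With no filter, Ephb6 had a log2 difference of -0.05 (limma, adjusted p = 0.126).

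Deviations of same-numbered libraries correlated at -0.0832, -0.114 and 0.011 over tested genes, and those of other pairs of libraries at -0.0331 to 0.0999. With 3 libraries per group, such values cannot show whether same-numbered cultures shared an origin. With the replicate number as a block, 3 members were higher and 4 lower, as without it, and 3206 genes were higher and 2542 lower in all. Genes under about 0.1 RPKM, Ephb6 among them, rest on too few reads for a difference to be detected.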
